A study of Macaca mulatta with 2 samples.

Results

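The segments described here are the 46 gene features whose symbol starts with TRAV or TRBV, out of 35432 gene features in the RNA data of circulating CD4+CD8+ double-positive (DP) T cells. They are 25 alpha variable (TRAV) and 21 beta variable (TRBV) segments. The deposited gene list names 45 of them, and TRBV11-2 was added through its gene ID. The cells came from the peripheral blood of 1 untreated rhesus monkey aged 6 years, by a positive selection on CD4 beads and then on CD8 beads. All cells were therefore in 1 library of 5′ gene expression and 1 library of CD4 and CD8 antibody tags, with no second animal, no genetic change and no treatment. Both libraries share all 7923 barcodes.

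A T cell receptor joins an alpha and a beta chain, and each chain starts with a variable segment that is picked from a row of similar segments on the chromosome when the cell matures in the thymus. The segment shapes the part of the receptor that meets the peptide and the presenting molecule, and daughter cells inherit it, so a segment carried by many cells can come from many cells that chose it or from few cells that divided. Allelic exclusion lets most T cells make 1 beta chain, while the alpha locus is rearranged on both chromosomes and a cell can carry 2 alpha chains. Alpha segments with DV in their name can also be joined into delta chains, whose locus lies inside the alpha locus.

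After the filter on cells, 7311 cells with at least 1 UMI of CD3E, the CD3 epsilon chain, were analyzed, with 509 to 23511 UMIs and a median of 3655 UMIs. A UMI marks 1 captured RNA molecule. A segment was assigned to a cell when it had at least 2 UMIs and more UMIs than any other named segment of its locus. All shares carry an exact (Clopper-Pearson) 95% binomial interval, which covers counting error only, because all cells are from a single animal and none stands for another animal. No test was therefore possible, and a difference between cell groups is given by its size and interval. More cells of a clone and more cells that share a segment cannot be told apart here, since joined sequences were not used.

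Sequences of 31 of the 46 segments were found in the RefSeq annotation of Mmul_10, the genome build that the authors used, by the name of the RefSeq product and not by gene ID. Of the others, 2 matched several products and 13 matched none, TRAV10 and TRBV7-3 among them. The matched TRAV lie on chromosome 7 and the matched TRBV on chromosome 3, all on the plus strand and in the same order as in the deposited gene list. The 60 bases that run up to and include the codon of the conserved cysteine, near the end of the variable exon, are printed for segments on which the results turn, read 5′ to 3′, with that codon in capitals. They show how far apart most of these segments are.
TRAV12-2: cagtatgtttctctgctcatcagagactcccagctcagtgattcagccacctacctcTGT
TRAV12-3: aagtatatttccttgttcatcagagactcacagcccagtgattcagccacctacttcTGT
TRAV19: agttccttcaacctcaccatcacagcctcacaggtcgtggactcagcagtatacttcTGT
TRAV21: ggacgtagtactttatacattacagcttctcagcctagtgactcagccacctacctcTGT
TRAV36DV7: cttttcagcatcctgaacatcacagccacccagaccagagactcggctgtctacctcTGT
TRAV13-1: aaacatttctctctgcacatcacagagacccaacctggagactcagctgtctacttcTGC
TRBV27: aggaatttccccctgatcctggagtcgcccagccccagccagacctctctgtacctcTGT
TRBV29-1: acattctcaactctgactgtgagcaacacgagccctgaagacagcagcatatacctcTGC
TRBV11-1: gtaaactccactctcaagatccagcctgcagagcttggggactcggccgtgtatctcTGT
TRBV9: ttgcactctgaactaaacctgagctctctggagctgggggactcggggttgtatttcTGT
In this order they lie at chr7:83774912-83774971, chr7:83849649-83849708, chr7:83899447-83899506, chr7:83937584-83937643, chr7:84245774-84245833, chr7:83752338-83752397, chr3:169197247-169197306, chr3:169222434-169222493, chr3:168831627-168831686 and chr3:168812184-168812243.

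Segments that resemble each other can split or lose reads in counting, so all 231 pairs of matched segments within a locus were compared from the start of the variable exon to the cysteine codon, a stretch of 263 to 290 bases. TRBV11-1 and TRBV11-2 were 94.7% identical and shared a run of 116 bases, and no other pair passed 90% or shared a run above 35 bases. TRAV12-2 and TRAV12-3, the most used alpha segments, were 86.0% identical with a longest shared run of 21 bases. The first aligned 180 bases of both pairs are shown, with the bases that differ within a pair in capitals, 27 in the alpha pair and 15 in the beta pair.
TRAV12-2: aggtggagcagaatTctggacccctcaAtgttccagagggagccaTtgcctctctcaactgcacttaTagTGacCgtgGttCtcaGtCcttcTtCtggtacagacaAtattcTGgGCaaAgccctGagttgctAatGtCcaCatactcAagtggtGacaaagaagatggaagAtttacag
TRAV12-3: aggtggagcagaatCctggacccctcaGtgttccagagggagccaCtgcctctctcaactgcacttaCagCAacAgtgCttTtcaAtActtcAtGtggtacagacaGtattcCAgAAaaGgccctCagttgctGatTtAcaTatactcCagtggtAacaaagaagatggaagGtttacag
TRBV11-1: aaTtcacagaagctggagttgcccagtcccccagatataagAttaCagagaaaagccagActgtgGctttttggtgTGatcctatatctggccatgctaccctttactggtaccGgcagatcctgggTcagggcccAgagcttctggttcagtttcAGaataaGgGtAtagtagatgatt
TRBV11-2: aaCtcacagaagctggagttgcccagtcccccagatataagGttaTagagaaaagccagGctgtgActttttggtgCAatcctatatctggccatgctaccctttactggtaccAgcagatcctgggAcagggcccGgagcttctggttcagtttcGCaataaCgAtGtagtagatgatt
The TRBV11 counts are therefore uncertain as to which of both segments they belong to. The share of a segment's cells that held at least 2 of its UMIs was lowest for TRBV11-1, at 28.1% of its 352 cells, and 98 of its 253 cells with a single UMI were assigned another TRBV.

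Named segments could be assigned to most DP T cells at 1 locus or the other but seldom at both. A TRAV was assigned in 2922 of the 7311 CD3E+ cells, or 40% (38.8 to 41.1). A TRBV was assigned in 2745 cells, or 37.5% (36.4 to 38.7). At least 1 of both was assigned in 64.1%, and both in 980 cells, or 13.4% (12.6 to 14.2). The named segments leave out part of both loci, so the cells without an assignment can carry segments that have no symbol in the gene list. As background served 86 kept cells that had no CD3D, CD3E or CD3G UMI and 3 or more UMIs over 6 B cell genes, at a median of 4121.5 UMIs. They held an assigned TRAV in 0 cells, with an interval that reaches 4.20%, and an assigned TRBV in 1 cell, or 1.16%. When each cell was thinned to 2000 UMIs and 1 UMI assigned, 42.0% of 6935 cells had a TRAV and 38.9% a TRBV.

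Usage was uneven at both loci, and the plot of usage by segment shows it. TRAV12-3 led the alpha locus with 14.2% of assigned cells (13 to 15.6), and TRAV12-2 followed with 14.1% (12.9 to 15.4), so these neighbours cannot be ordered. TRAV19 came next with 11.2% (10.0 to 12.4), and below it came TRAV10 with 6.16% (5.32 to 7.09), TRAV21 with 5.54% and TRAV13-1 with 5.37%. At the beta locus TRBV27 had 12.8% (11.6 to 14.1) and TRBV9 12.0% (10.8 to 13.3), again with overlapping intervals. TRBV23-1 had 9.73%, TRBV7-3 9.40% and TRBV5-1 9.29%, which also overlap. In all, 20 TRAV and 17 TRBV were assigned to at least 30 cells. Below that were TRAV2, TRAV39 and TRAV41 with 10 to 29 cells and TRBV11-2, TRBV5-4, TRBV12-5 and TRBV16 with 2 to 25 cells. TRAV8-3 and TRAV16 had no UMI in any barcode. With 3 counts over the group as a bound, this allows UMIs of each in up to 0.0410% of the CD3E+ cells. It sets no limit on the cells that carry the segment, since most cells had no assigned TRAV. The effective number of segments, the number of equally used segments that would give the same chance of drawing a segment again, was 13.1 for TRAV and 13 for TRBV.

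**Figure D1:**
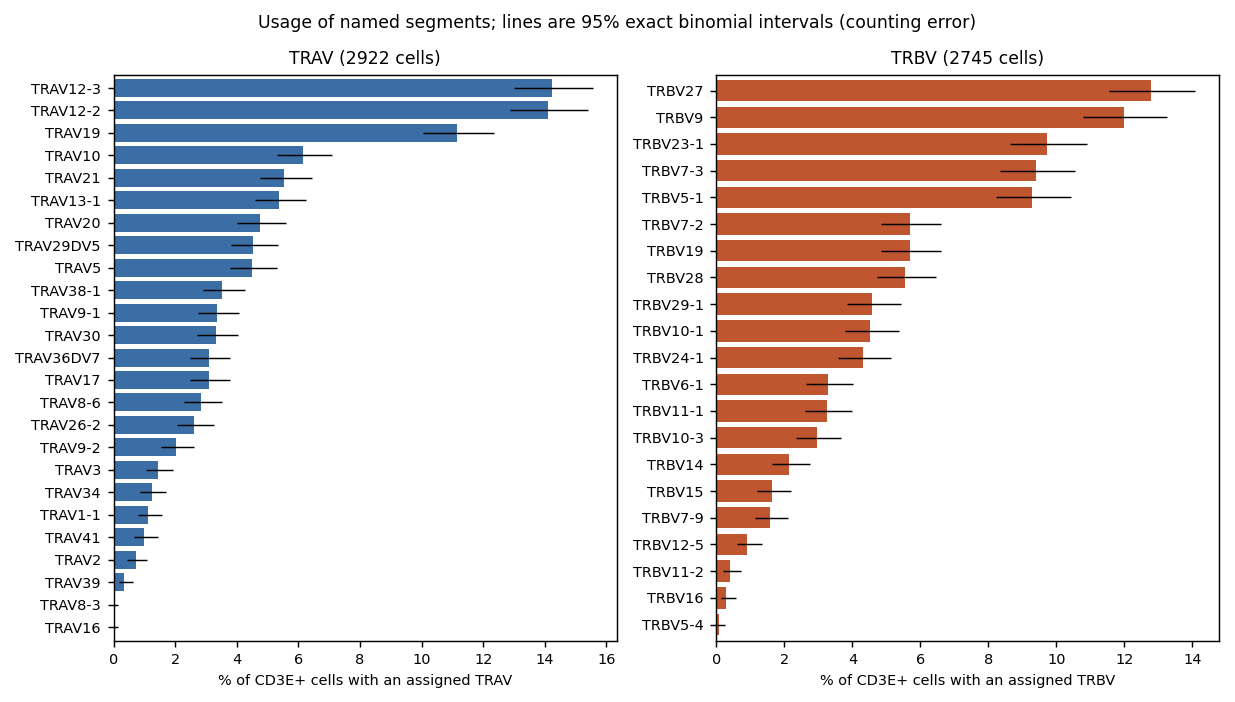
Share of the CD3E+ cells with an assigned TRAV (left, 2922 cells) or TRBV (right, 2745 cells) that each named segment took, in percent, with lines for 95% exact binomial intervals. TRAV12-3, TRAV12-2 and TRAV19 stand above the other alpha segments, while 5 beta segments from TRBV27 to TRBV5-1 lie between 9.29% and 12.8%.

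The CD3E+ cells were then split by raw UMIs of 7 genes that mark T cell states. GZMB encodes the cytotoxic protease granzyme B, CX3CR1 a chemokine receptor of effector cells, and EOMES a transcription factor of effector and memory cells. ZBTB16 encodes PLZF, the transcription factor of innate-like T cells, CCR9 a receptor for homing to the gut, FOXP3 the factor of regulatory T cells, and CCR7 the lymph node homing receptor of naive and central memory cells. A cell was positive with at least 3 UMIs of GZMB or 1 UMI of another gene, and was compared with cells holding 0 UMIs of that gene. There were 2770 GZMB+, 1269 CX3CR1+, 356 EOMES+, 220 ZBTB16+, 479 CCR9+, 162 FOXP3+ and 2163 CCR7+ cells. The gates overlapped, since 91.6% of CX3CR1+ cells were also GZMB+ and 71.0% of FOXP3+ cells were also CCR7+. Of the 86 B gene cells, 16 were positive for CCR7, which B cells express, 3 for CCR9, 2 for GZMB and 0 for the others. Depth moved with the gates, from a median of 3303 UMIs in GZMB+ against 4047 in GZMB 0 cells to 4798 in CCR9+ against 3591 in CCR9 0 cells, and values after thinning are given for the leading results. Thinning changed the segment counts, and with it the assignment minimum was 1 UMI in place of 2 and 376 shallower cells were left out. Values after thinning therefore mix depth with these changes. The gates stayed on the full counts, so the part of depth in gate membership was not tested.

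GZMB+ cells used the segments of both loci less evenly than GZMB 0 cells, although 22 TRAV and 20 TRBV were assigned in them. Their effective number of TRAV was 7.26 against 17.3 in GZMB 0 cells, and 7.13 against 17.8 after thinning. TRAV12-2 was assigned to 22.4% (20.1 to 24.9) of the 1172 GZMB+ cells with a TRAV and to 7.84% of the 1557 GZMB 0 cells. TRAV12-3 made up 20.2% against 9.89%, and TRAV19 18.0% against 6.55%. TRAV36DV7, a segment that alpha or delta chains can use, made up 5.29% against 1.54%. The intervals of both sides do not overlap for any of these 4 segments. They are not 4 separate results, since a cell with several TRAV was assigned only the one with most UMIs. At least 2 UMIs of each were found in 123 cells for TRAV12-3 with TRAV19 and in 49 cells for TRAV19 with TRAV36DV7. Of these cells 72.4% and 95.9% were GZMB+. The part of cells with several TRAV in these shares and in the effective number was not tested.

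The beta locus of GZMB+ cells was led by a segment that few GZMB 0 cells used. TRBV7-3 was assigned to 243 of 1005 GZMB+ cells, or 24.2% (21.6 to 26.9), and to 10 of 1579 GZMB 0 cells, or 0.633% (0.304 to 1.16), a log2 ratio of usage of 5.25 (4.35 to 6.33). TRBV29-1 made up 8.56% against 2.41%. TRBV27 made up 13.9% against 11.8%, with a log2 ratio of 0.23 (-0.09 to 0.56), which is within counting error. The effective number of TRBV was 8.65 against 12.2, and 9.42 against 12.7 after thinning.

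Segments at the other end were used mainly by GZMB 0 cells. TRBV15 was assigned to 2 GZMB+ and 41 GZMB 0 cells, with a log2 ratio of -3.71 (-6.80 to -1.76). TRAV8-6 gave -3.50 (-5.16 to -2.21), TRAV1-1, with 2 GZMB+ cells, -3.45 (-6.56 to -1.47), and TRAV13-1 -3.20 (-4.23 to -2.31). The map of usage ratios shows these columns beside those of the other gates.

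**Figure D2:**
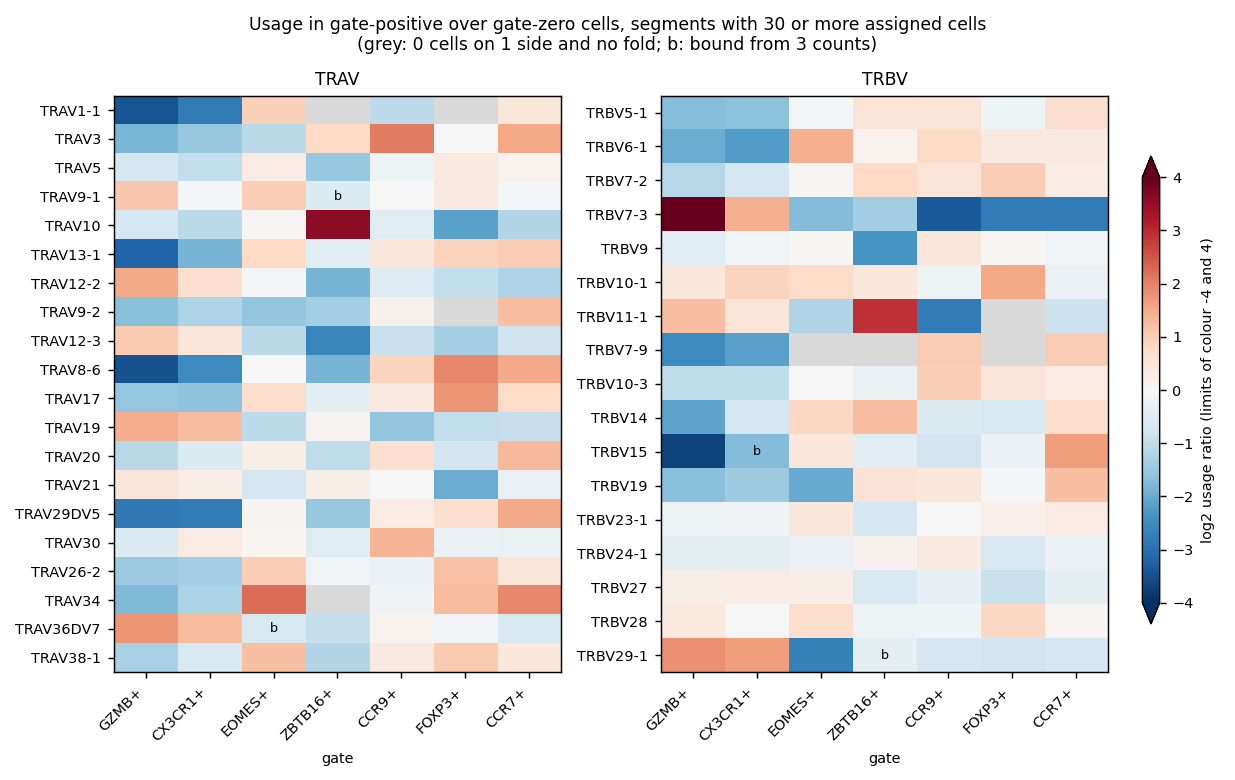
Log2 ratio of the usage of each segment with 30 or more assigned cells (rows) in gate-positive over gate-zero cells (columns), for TRAV (left) and TRBV (right). TRBV7-3 is highest in the GZMB column at 5.25, beyond the end of the color scale, and TRAV10 in the ZBTB16 column at 3.57, while grey fields had 0 cells on 1 side and allow no fold, and the letter b marks a bound from 3 counts.

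The CX3CR1 gate resembles the GZMB gate and shares most of its cells. TRAV19 led with 21.1% (17.7 to 24.9) of CX3CR1+ against 8.97% of CX3CR1 0 cells, and TRBV7-3 led the beta locus with 19.3% (15.9 to 23.1) against 7.21%. Among the 5 largest ratios, all were lower in CX3CR1+ cells. TRAV29DV5 had a log2 ratio of -2.81 (-4.71 to -1.42), TRAV8-6 of -2.55 and TRBV6-1 of -2.25, each from 3 or 4 CX3CR1+ cells. TRAV1-1 and TRBV7-9, the other two, rested on 1 and 2 CX3CR1+ cells. Within the GZMB+ cells, TRAV19 was assigned to 22.6% (18.9 to 26.6) of those with a CX3CR1 UMI and to 14.8% (12.3 to 17.7) of those with 0. TRBV29-1 likewise took 11.2% (8.45 to 14.4) against 6.31% (4.41 to 8.70). TRBV7-3 went the other way, with 20.4% (16.8 to 24.3) against 27.5% (23.7 to 31.4), and for TRBV29-1 and TRBV7-3 the intervals of both sides overlap slightly. Among CX3CR1+ cells positive for no other gate, which are few, TRAV19 took 7.89% and TRBV7-3 4.35%.

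A TRAV was assigned in 124 of the 220 ZBTB16+ cells, and a single alpha segment led among these. TRAV10, whose human counterpart forms the alpha chain of invariant NKT cells, was assigned to 62 of the 124 ZBTB16+ cells with a TRAV, or 50% (40.9 to 59.1), and to 118 of 2798 ZBTB16 0 cells, or 4.22% (3.50 to 5.03). The log2 ratio was 3.57 (3.1 to 4.02), and after thinning the shares were 49.6% and 3.72%. The effective number of TRAV was 3.69 against 12.9. Joined sequences were not used, so an invariant alpha chain was not identified in these cells. In the study, NCAM1, a TRAV24-like segment and TRAJ18 served as NK or NKT markers, and their expression was reported as very low or absent. TRBV11-1 led the beta locus with 17 of 83 ZBTB16+ cells, or 20.5% (12.4 to 30.8), against 2.70%, a log2 ratio of 2.92 (2.06 to 3.70). After thinning its shares were 19.5% and 5.24%, and among cells positive for no other gate TRAV10 took 70.2% and TRBV11-1 40% of ZBTB16+ cells. With a gate minimum of 2 UMIs, which left few cells, TRBV11-1 took 66.7% (29.9 to 92.5). Of the 62 ZBTB16+ cells with TRAV10, 8 had an assigned TRBV, and 1 of these held TRBV11-1. TRAV12-3 was assigned to 3 ZBTB16+ cells, with a log2 ratio of -2.61 (-4.89 to -1.05), and TRBV9 to 2 cells, with -2.35 (-5.40 to -0.49). TRAV8-6 had 1 ZBTB16+ cell and -1.86 (-7.18 to 0.66), which was 0.29 with a gate minimum of 2 UMIs.

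**Figure D3:**
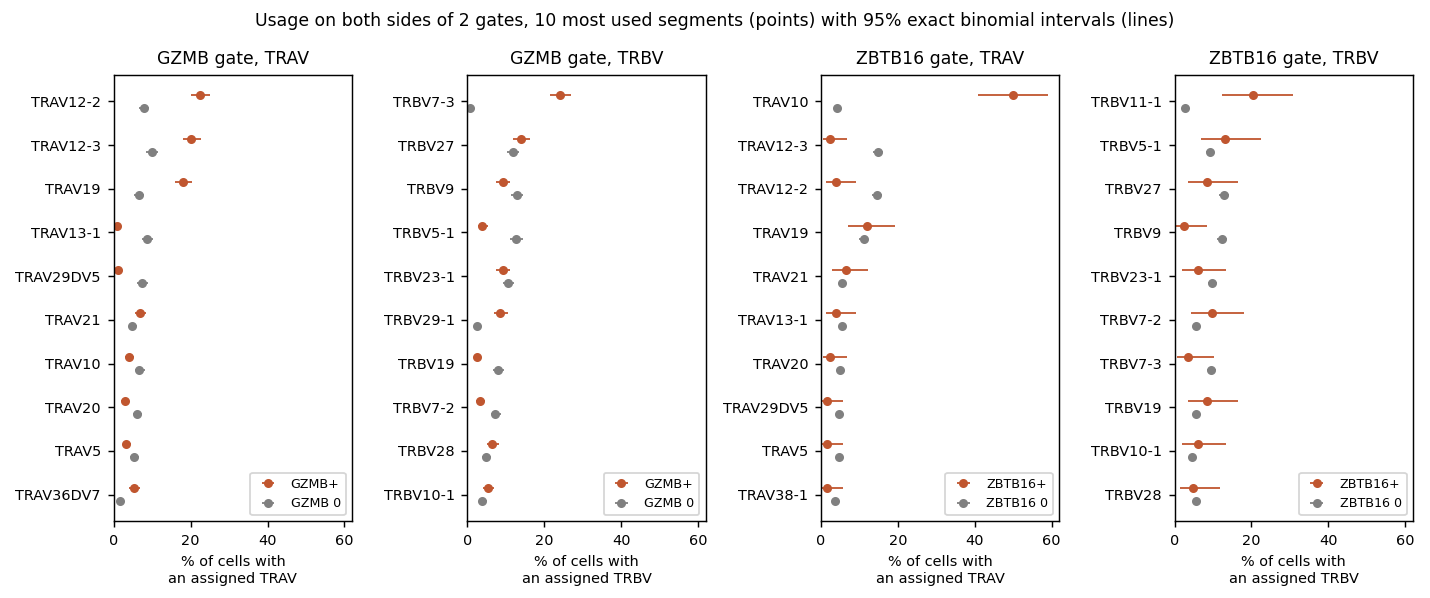
Usage of the 10 most used segments of each locus on both sides of the GZMB gate (left pair of panels) and the ZBTB16 gate (right pair), in percent of the cells with an assigned segment of that locus, with 95% exact binomial intervals as lines. TRBV7-3 takes 24.2% of GZMB+ and 0.633% of GZMB 0 cells, and TRAV10 takes 50% of ZBTB16+ and 4.22% of ZBTB16 0 cells.

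TRAV10 cells were described further because of this share. ZBTB16 set the gate, so its values in these cells read the same UMIs again and add no separate evidence. Of the 180 TRAV10 cells, 34.4% (27.5 to 41.9) had a ZBTB16 UMI, against 4.24% of all cells with an assigned TRAV, and the ZBTB16 level, in CPM (UMIs scaled to the same total in each cell group), was 108 CPM (85.8 to 134) against 6.52 CPM in cells with another TRAV. TYROBP, a signaling adaptor of NK cells, stood at 832 CPM in TRAV10 cells and 78.2 CPM in the others. TRGV9, a gamma chain variable segment, had a UMI in 41.7% (34.4 to 49.2) of TRAV10 cells and 0.620% of the others. A feature without a symbol, ENSMMUG00000059234, had one in 70% (62.7 to 76.6) against 0.620%.

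TYROBP and KLRB1 were high in TRAV10 cells on both sides of the gate, but TYROBP and MAP3K8 differed between the sides. A TYROBP UMI was found in 87.1% (76.1 to 94.3) of ZBTB16+ and 61.9% (52.5 to 70.6) of ZBTB16 0 TRAV10 cells. In the 62 TRAV10 cells with a ZBTB16 UMI, TYROBP was at 1055 CPM (935 to 1186), and KLRB1, the lectin receptor CD161, at 771 CPM (669 to 885). In the 118 TRAV10 cells with 0 ZBTB16 UMIs they were at 710 CPM (637 to 789) and 597 CPM (530 to 670). A count of 0 can also be a missed transcript, so these cells cannot be called ZBTB16-negative. The 62 ZBTB16+ cells with another TRAV had 143 CPM of TYROBP and 196 CPM of KLRB1. MAP3K8, an innate-like marker in the study, was at 159 CPM (114 to 215) in ZBTB16+ and 43.2 CPM (26.8 to 66.1) in ZBTB16 0 TRAV10 cells. CCR7 was at 30.2 CPM (13.1 to 59.6) and 111 CPM (83.5 to 145) in these groups. The shares of their cells with a CCR7 UMI overlapped, at 11.3% (4.66 to 21.9) and 17.8% (11.4 to 25.9). Intervals of CPM take each UMI as separate and leave out the spread between cells, so they can be too narrow. CD8B, the beta chain of CD8, had 1 UMI in all TRAV10 cells, or 1.33 CPM (0.0338 to 7.43), against 19 CPM (16.7 to 21.6) over all cells with a TRAV. Low CD8B was not particular to TRAV10. It was at 5.08 CPM (0.616 to 18.4) in TRAV36DV7, 5.66 CPM (1.84 to 13.2) in TRBV7-3 and 5.62 CPM (1.16 to 16.4) in TRBV29-1 cells. Of 180 TRAV10 cells, 34, or 18.9% (13.5 to 25.4), had an assigned TRBV, against 33.5% over all TRAV. A low share was not particular to TRAV10 either, with 18.9% (11.4 to 28.5) in TRAV36DV7 and 21.8% (17.9 to 26.2) in TRAV12-2 cells. Of the TRAV12-3 cells, 79 of 416 had an assigned TRBV, while the share reached 67.3% in TRAV9-1 cells. Of the 34 TRAV10 cells with a TRBV, 11 held TRBV7-2.

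In the small gates the counts were low. EOMES+ cells had no dominant alpha segment, with an effective number of 16.4 against 12.9, and the intervals of their leading segments, TRAV12-2 at 13.3% (8.19 to 20) and TRBV27 at 15.3% (9.75 to 22.5), overlapped those of EOMES 0 cells. TRAV12-2 took 6.67% (1.40 to 18.3) among EOMES+ cells positive for no other gate, and TRBV27 took 26.0% when UMIs were counted in place of cells. TRAV34 had 7 EOMES+ cells and a log2 ratio of 2.23 (0.79 to 3.45). TRBV29-1, with 1 cell, had -2.72 (-8.03 to -0.21), TRBV19, with 2 cells, -2.02 (-5.07 to -0.14), TRBV7-3, with 4 cells, -1.74 (-3.62 to -0.36) and TRAV9-2, with 1 cell, -1.58 (-6.91 to 0.96). These ratios were led by segments that were rare among the EOMES+ cells.

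CCR9+ cells were spread widely over the alpha segments, with an effective number of 19.3 against 12.7, and 19.7 against 13.1 after thinning. TRAV12-2 led with 10.1% (6.07 to 15.4) and TRBV9 led the beta locus with 15.8% (11.1 to 21.6), but with a gate minimum of 2 UMIs TRAV12-2 took 5.19% (1.43 to 12.8). TRBV7-3 was assigned to 2 of 202 CCR9+ cells with a TRBV, a log2 ratio of -3.35 (-6.40 to -1.48), and TRBV11-1 to 1 cell, with -2.81 (-8.13 to -0.29). TRAV3 was assigned to 9 of 179 cells, or 5.03%, against 1.20%, with 2.06 (0.81 to 3.16). TRAV39 and TRAV41 had log2 ratios of 1.94 (-1.34 to 4.26) and 1.67 (-0.07 to 3.09) from 2 and 5 CCR9+ cells, which is within counting error. Only 6.89% of CCR9+ cells were GZMB+, against 37.9% of all CD3E+ cells. GZMB 0 cells as a whole had an effective number of TRAV of 17.3, and 17.8 after thinning.

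FOXP3+ cells were also spread widely over the alpha segments, with an effective number of 19.3 against 12.9 from 70 cells, and 16.7 against 13.3 after thinning. GZMB 0 cells as a whole had 17.3, and 17.8 after thinning, so this spread is not particular to FOXP3+ cells. Only 6.17% of FOXP3+ cells were GZMB+. TRAV13-1, TRAV8-6 and TRAV17 tied at 7 cells each, or 10.0% (4.12 to 19.5). TRBV9 and TRBV10-1 tied at 9 of 72 cells, or 12.5% (5.88 to 22.4), against 12.0% and 4.30% in FOXP3 0 cells. TRBV7-3 had 1 cell, with a log2 ratio of -2.79 (-8.10 to -0.30). TRAV39 had 2 cells, with 3.35 (0.08 to 5.67), TRBV12-5 had 3 cells, with 2.34 (-0.04 to 4.07), and TRAV10 and TRAV21 had 1 cell each, with -2.14 (-7.45 to 0.36) and -1.98 (-7.29 to 0.52).

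CCR7+ cells used the alpha segments more evenly than CCR7 0 cells, while 23 TRAV were assigned on both sides. Their effective number of TRAV was 17.5 against 10.8 in CCR7 0 cells, and 17.9 against 11.1 after thinning. GZMB 0 cells as a whole had 17.3, and 7.77% of CCR7+ cells were GZMB+. TRAV12-3 still led with 9.44% (7.57 to 11.6), against 16.2% in CCR7 0 cells. TRAV29DV5 was assigned to 8.39% against 2.91%, TRAV20 to 8.16% against 3.34% and TRAV13-1 to 8.39% against 4.12%. At the beta locus TRBV5-1 led with 12.2% (10.2 to 14.5) against 7.76%, and TRBV19 had 9.03% against 3.94%. TRBV7-3 was assigned to 1.91% against 13.3%, a log2 ratio of -2.80 (-3.58 to -2.11). TRAV34, TRAV39, TRAV2 and TRBV15 had the next largest ratios, at 1.92 (0.89 to 3), 1.85, 1.68 and 1.66, and that of TRAV39, from 10 cells in all, was -0.56 after thinning.

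The share of a segment's own cells that fell in a gate gives the same data the other way. Of the 258 TRBV7-3 cells, 94.2% (90.6 to 96.7) were GZMB+ and 6.98% CCR7+, against 36.6% and 34.3% of all cells with a TRBV. TRAV36DV7 followed with 68.9% GZMB+, TRBV29-1 with 68.3%, TRAV19 with 64.7%, TRAV12-2 with 63.8% and TRAV12-3 with 57.0%. TRBV15 was lowest with 4.44% (0.543 to 15.1) GZMB+ and had the highest CCR7+ share, 62.2% (46.5 to 76.2). TRAV10 stood low in both, with 26.7% GZMB+ and 15.6% CCR7+, as the plot of both shares shows. The GZMB level of TRBV7-3 cells was 4909 CPM (4764 to 5057), against 930 CPM in cells with another TRBV. It reads the UMIs that set the gate and adds no separate evidence.

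**Figure D4:**
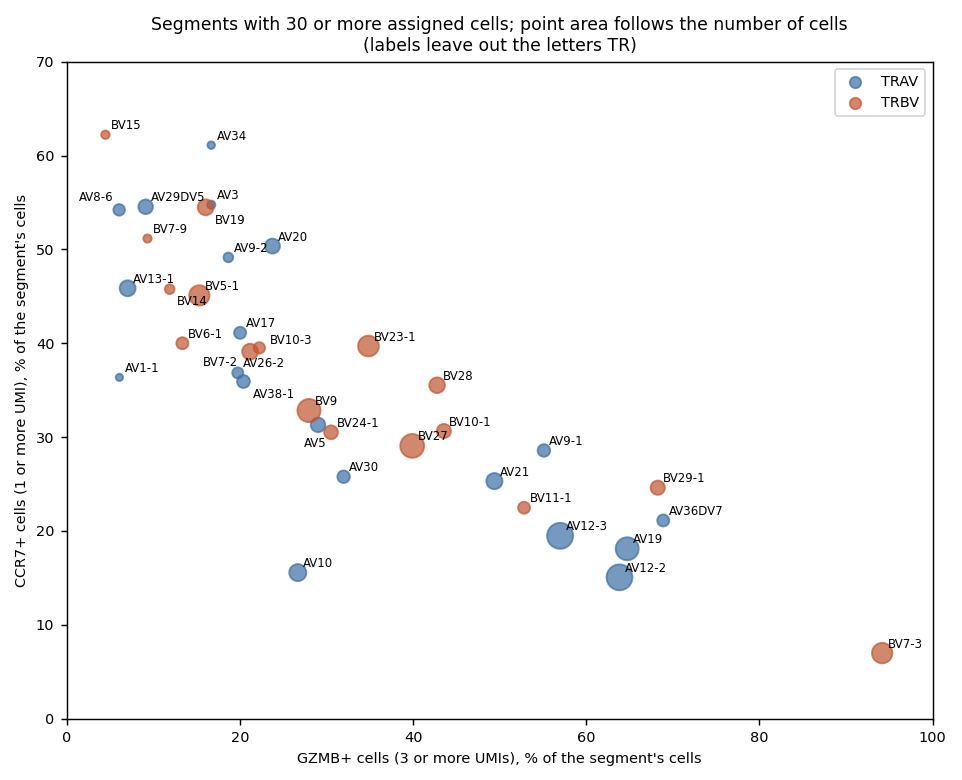
Percent of each segment's assigned cells that were GZMB+ (horizontal axis) and CCR7+ (vertical axis), for the 37 segments with 30 or more cells, blue for TRAV and orange for TRBV, with point area by number of cells. TRBV7-3 lies at 94.2% and 6.98%, TRBV15 at 4.44% and 62.2%, and TRAV10 at 26.7% and 15.6%.

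As a comparison with all genes, UMIs were summed on both sides of a gate and called past 2-fold on CPM + 10, among genes with at least 50 UMIs on the higher side. In the GZMB gate, 13 of 42 segments so measured were past 2-fold, 8 higher and 5 lower, where the background was 3.81% of 9127 genes. The median log2 ratio was -0.47 over the segments and 0.13 over all genes. In the CX3CR1 gate 8 of 43 were past it against 1.93% of genes, in the EOMES gate 3 of 34 against 0.66%, and in the ZBTB16 gate 10 of 37 against 0.588%. In the CCR9 gate they were 5 of 37 against 1.4%, in the FOXP3 gate 8 of 24 against 2.41%, and in the CCR7 gate 2 of 42 against 1.72%. A segment's UMIs can lie in few cells with several each, so in small gates few cells can carry it past 2-fold. The 3 segments higher in FOXP3+ cells, TRBV7-2, TRBV12-5 and TRAV38-1, were measured through their UMIs there. They were assigned to 8, 3 and 5 FOXP3+ cells, and single CD3E+ cells held up to 78, 42 and 39 of their UMIs. The segment counts depend on the added CPM. They moved by more than 1.5 times in 5 of the 7 gates with 1 CPM and in all 7 with 50 CPM. The 2 segments that were higher in ZBTB16+ cells were TRAV10 and TRBV11-1, and those lower in CCR7+ cells were TRBV7-3 and TRAV12-2. Summed UMIs can differ from cells assigned, since TRBV27 and TRBV10-1 were past 2-fold in the GZMB gate but had similar usage by cells on both sides.

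The other genes of the receptor complex were measured in the same sums. Of the 13 listed genes, TRBC1, TRBC2, TRDC, TRGC1, TRGC2 and TRAJ18 gave no values here, so their levels are not known from these sums. For TRAJ18 the study reported very low or absent expression. PTCRA had too few UMIs in each gate. CD3D, CD3E, CD3G, CD247, TRAC and TRAT1 were measured in each gate, and 0 of these 6 were past 2-fold in any of the 7 gates. For CD3E this is partly set in advance, since all cells were selected for at least 1 CD3E UMI. TRAC, the constant part of the alpha chain, was at 360 CPM in GZMB+ and 392 CPM in GZMB 0 cells. The largest difference among them was that of TRAT1, a stabilizer of the receptor complex, at 53.4 CPM in FOXP3+ and 115 CPM in FOXP3 0 cells, a log2 ratio of -0.98 on CPM + 10 that is past 2-fold without the added 10 CPM. CD3G stood at 564 CPM in GZMB+ and 330 CPM in GZMB 0 cells.

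Pairs could be read in the 980 cells with both loci assigned. They formed 279 different pairs of 460 possible ones, and 105 of them were seen in 1 cell. The 18 pairs with at least 10 cells held 340 cells, or 34.7%. The most frequent pair was TRAV9-1/TRBV27 with 49 cells, or 74.2% (62 to 84.2) of the 66 TRAV9-1 cells with a TRBV, where TRBV27 made up 18.1% of all cells with both. That is 4.11 times the product of both usages, and 41 of the 49 cells were GZMB+. TRAV19/TRBV11-1 followed with 38 cells, 8.67 times the product, or 46.9% (35.7 to 58.3) of TRAV19 and 71.7% of TRBV11-1 cells with both. Of these, 32 were GZMB+ and 11 ZBTB16+. TRAV21/TRBV27 had 34 cells, 2.16 times the product, and 29 were GZMB+. TRAV10/TRBV7-2 had 11 cells, 5.56 times the product, with 4 ZBTB16+.

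Frequent pairs were not confined to GZMB+ cells. TRAV20/TRBV9 had 26 cells, 6 of them GZMB+ and 14 CCR7+. TRAV13-1/TRBV9 had 18 cells with 2 GZMB+ and 2 CCR7+, and TRAV5/TRBV6-1 had 10 cells with 0 GZMB+ and 1 CCR7+. All 12 cells of TRAV12-3/TRBV28 and all 11 of TRAV12-3/TRBV24-1 were GZMB+. TRAV12-2/TRBV9 had 31 cells, 2.19 times the product, while TRAV12-2/TRBV27, TRAV13-1/TRBV27 and TRAV21/TRBV9 had fewer than the product, 0.738, 0.729 and 0.878 times. The remaining pairs with at least 10 cells lay between 1.20 and 4.76 times. The effective number of pairs was 21.1 in 308 GZMB+ and 178 in 605 GZMB 0 cells. In ZBTB16+ cells it was 14.6, and the leading pair was TRAV19/TRBV11-1 with 11 of 43 cells.

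**Figure D5:**
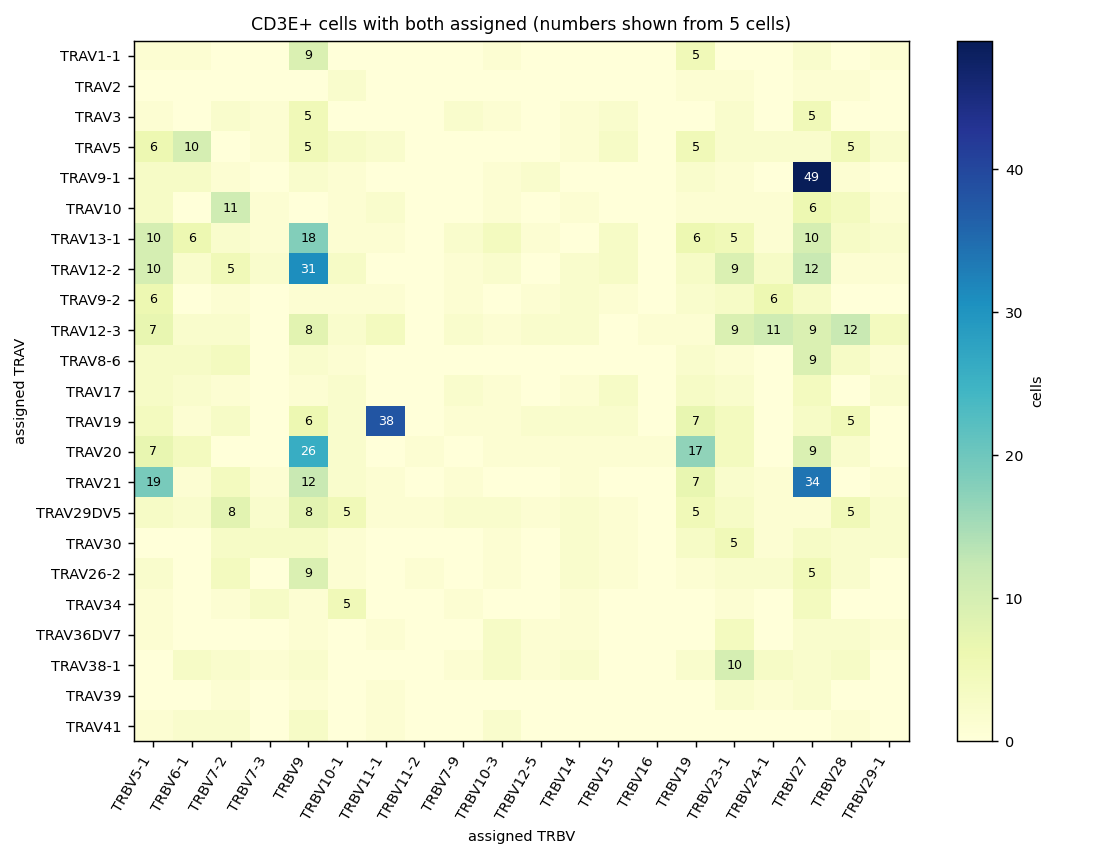
Number of CD3E+ cells with each combination of an assigned TRAV (rows) and TRBV (columns) among 980 cells with both, printed from 5 cells on. TRAV9-1/TRBV27 (49 cells) and TRAV19/TRBV11-1 (38 cells) stand out, and the TRBV7-3 column holds few cells although 258 cells were assigned TRBV7-3.

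Most cells of the leading GZMB+ beta segment had no partner with a name. Of the 258 TRBV7-3 cells, 16 had an assigned TRAV, or 6.20% (3.59 to 9.88), and 25 had any named TRAV UMI. Of the 762 GZMB+ cells with another TRBV, 39.1% (35.6 to 42.7) had one. TRBV7-3 cells were shallower, with a median of 3005 UMIs in GZMB+ cells against 3724.5, and the part of depth in this was not tested. In contrast, a feature without a symbol, ENSMMUG00000062974, had a UMI in 90.7% (86.5 to 93.9) of TRBV7-3 cells and 5.19% of cells with another TRBV. KLRD1, the NK receptor chain CD94, had one in 78.7% (73.2 to 83.5) against 14.2%. Both features were compared with all cells of another TRBV and not within GZMB+ cells. Of TRBV7-3 cells 94.2% were GZMB+, against 36.6% of all cells with a TRBV, and the part of this in both differences was not tested. TRBV29-1 cells also seldom had a TRAV, with 15.9% (9.97 to 23.4). At the other end, 67.3% of TRAV9-1, 60.6% of TRAV1-1 and 59.6% of TRBV11-1 cells had an assigned partner.

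Cells with 2 or more segments of a locus at 2 UMIs each were more frequent for alpha than for beta. There were 446 among the 3023 cells with any such TRAV, or 14.8% (13.5 to 16.1), and 164 among 2761 for TRBV, or 5.94% (5.09 to 6.89). The cells with several TRBV had a median of 6327.5 UMIs against 3843 in those with 1 TRBV, while the cells with several TRAV had 3891 against 3735. Doublets, droplets with more than 1 cell, were not removed, and their part in these counts was not tested. After thinning to 2000 UMIs, still with 2 UMIs for each segment, the shares were 7.46% for TRAV and 2.07% for TRBV.

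A few alpha combinations made up much of this group. TRAV12-3 with TRAV19 was found in 123 cells, or 26.7% (22.7 to 31.0) of the 461 cells with 2 UMIs of TRAV19, at a median of 3318 UMIs, and 72.4% were GZMB+. TRAV19 with TRAV36DV7 was found in 49 cells, or 36.0% (28.0 to 44.7) of the TRAV36DV7 cells, and 95.9% were GZMB+. TRAV12-2 with TRAV21 was found in 25 cells and TRAV10 with TRAV21 in 18. By sequence, TRAV12-3 and TRAV19 were 56.7% identical with no shared run above 9 bases, and TRAV19 and TRAV36DV7 61.4% with 11 bases. The most frequent beta combination, TRBV5-1 with TRBV9, was found in 7 cells with a median of 7372 UMIs. In GZMB+ cells 19.6% of those with a TRAV held several, against 11.3% in GZMB 0 cells, and for TRBV the shares were 4.66% and 6.74%.

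The antibody tags varied with the segment more for CD8 than for CD4. The median CD8 tag was 342 UMIs over all CD3E+ cells and 139.5 (quartiles 96.75 and 214.75) in the B gene cells. TRBV7-3 cells had the lowest median, 198 UMIs (quartiles 161 and 266.75), and within GZMB+ cells they had 200 against 407.5 for other TRBV. Both medians of TRBV7-3 cells lie within the quartiles of the B gene cells. The CD8 tag therefore does not set many TRBV7-3 cells apart from that background. The highest medians were 590 UMIs in TRAV3, 533 in TRBV11-1 and 510 in TRBV29-1 cells. The median CD4 tag was 387 UMIs over all CD3E+ cells, 90 in B gene cells, and between 301 in TRBV29-1 and 530 in TRAV1-1 cells. The mRNA of CD8A was at 123 CPM (101 to 149) in TRBV7-3 cells and 182 CPM in all cells with a TRBV, a comparison not limited to GZMB+ cells.

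Other genes that led the cells of a segment were sought by the ratio of CPM + 10 to the other assigned cells of the locus, taking the first 3 with at least 50 UMIs for each of the 37 segments. These 111 entries were 67 different features, 27 of them without a symbol, and 18 entries rested on 3 or fewer cells. CCR7 was at 243 CPM in TRAV29DV5 against 129 CPM in other TRAV cells, and LEF1, a transcription factor of naive T cells, at 210 CPM in TRBV19 against 106 CPM in other TRBV cells. TRAV36DV7 cells had CX3CR1 at 152 against 60.3 CPM and GZMB at 2389 against 1164 CPM. CCR7, CX3CR1 and GZMB also set the gates, so their values here read the same UMIs again and add no separate evidence. TRBV11-1 cells had KLRB1 at 553 against 133 CPM, the receptor NKG2D at 132 against 49.2 CPM, and the gamma segment TRGV1 in 50.6% (39.8 to 61.3) of cells against 7.30%. TRGV1 also came first in TRAV19 cells, with a UMI in 19.9% (15.7 to 24.7) against 4.39% of other TRAV cells, and second in TRBV10-1 cells, with 28.2% against 7.78%.

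Marker lists of other blood cells were summed on both sides of the gates. The NK list, with UMIs of 3 of its 4 genes in GZMB+ cells, was at 167 CPM in GZMB+ and 12.9 CPM in GZMB 0 cells. B cell genes were at 58 and 76.4 CPM there, monocyte genes at 11.9 and 8.91 CPM and platelet genes at 0.559 and 0.4 CPM. Red blood cell genes were at 107 and 347 CPM, and plasmacytoid dendritic cell genes, 3 of 4 found, at 38.7 and 23.6 CPM. The list of 5 T cell genes, which includes the CD3E that selected the cells, was at 3636 and 2698 CPM. The NK list was at 164 CPM in CX3CR1+ and 53.6 CPM in CX3CR1 0 cells, at 13.4 and 105 CPM in the CCR7 gate, and at 72.4 CPM on both sides of the ZBTB16 gate. B cell genes were higher in CCR9+ cells, at 146 against 66.4 CPM, in CCR7+ cells, at 129 against 43.3 CPM, and in EOMES+ cells, at 139 against 69.9 CPM. Red blood cell genes were lower on the positive side of every gate, from 7.89 against 370 CPM for CCR7 to 125 against 266 CPM for CX3CR1. The part of these lists in the usage results was not tested. Of the 6 gamma delta genes listed, TRGV9 alone was found under its name, at 100 CPM in ZBTB16+ and 7.56 CPM in ZBTB16 0 cells.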

How the data were processed

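The authors sequenced 5′ gene expression and CD4 and CD8 tag libraries and deposited raw UMI counts per feature and barcode, with no normalization. Per the labels, Cell Ranger 3.1.0, STAR 2.5.1b and Seurat 3.1.3 were used with Mmul_10. No source used here names the annotation release. The assembled receptor contigs were not used here.

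Genes with a UMI in 3 or more barcodes of at least 200 genes were kept, then barcodes of at least 200 and no more than 4000 genes whose mitochondrial share, over 13 named genes and 2 unnamed features listed among them, was up to 20%, which left 14459 genes and 7601 cells with a median of 3636 UMIs. Cells without CD3E UMIs were left out. Ties (101 cells for TRAV, 16 for TRBV) stayed unassigned. The filter follows the study. The effective number is the inverse of the unbiased Simpson index. Log2 ratios of usage have intervals from the binomial split of both counts, and a count of 0 was replaced by 3 counts over the group to give a bound. CPM has exact Poisson intervals, which cover the counting error of UMIs only and leave out the spread between cells. With 1 animal there was no test. Thinning to 2000 UMIs used seed 1 and left out 376 shallower cells, with segments assigned at 1 UMI and the gates set on the full counts.

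Segments with at least 30 assigned cells, pairs with at least 10 cells, the 3 leading other features of a segment, and for each gate the 5 segments with the largest usage ratio among those with at least 10 cells were named. TRAV10, TRBV7-3 and pairs of segments in 1 cell were followed further after their values had been seen. The members and gene lists were chosen with earlier results of these data known. Sequences are from RefSeq, Mmul_10. Python 3.11.15, numpy, scipy and Biopython were used, and the computation was tested on simulated data. The alternatives were other assignment minimums, filters, gates, thinning, units of usage and pseudocounts. One gene among the leading features is not reported here.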

Additional observations from a re-analysis of the deposited data

Results flagged for a closer look

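Assigned segments were also found in data that the comparisons did not use. Of the 322 barcodes that the filter left out, with a median of 2252.5 UMIs, 26.7% (22.0 to 31.9) had an assigned TRAV and 25.8% (21.1 to 30.9) an assigned TRBV. Such cells entered no comparison.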

How the results depend on the processing

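There were 14 alternatives, of which 2 were chosen after seeing the data, namely only the 13 named mitochondrial genes and leaving out the 5% of cells with most UMIs. Shares were compared with the 95% interval of their reported value, and effective numbers and counts with 1.5 times either way. For the main results, 319 comparisons stayed within these limits and 48 did not. For single segments and pairs, 1121 stayed within, 158 did not and 2 changed sign: the log2 usage ratio of TRAV39 in the CCR7 gate became -0.56 after thinning, and that of TRAV8-6 in the ZBTB16 gate 0.29 with gate minimums of 10 UMIs for GZMB and 2 for the others.

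Assigning at 1 UMI gave a TRAV in 52.0% of CD3E+ cells, a TRBV in 46.0%, both in 22.6%, and TRBV7-3 in 20.7% of GZMB+ cells. At 3 UMIs these shares were 29.6%, 32.6% and 8.82%. Thinned and assigned at 1 UMI, they were 42.0%, 38.9% and 14.5%. Cells with several TRAV or TRBV at 2 UMIs each then made up 7.46% and 2.07%. Without cells of several TRBV, 36.3% had a TRBV, and without the 5% of cells with most UMIs, 12.5% had both.

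Among cells positive for exactly 1 gate, GZMB+ cells held TRAV12-2 at 26.7% and TRBV7-3 at 30.4%, and EOMES+ cells TRAV12-2 at 6.67%. CX3CR1+ cells then held TRAV19 at 7.89% and TRBV7-3 at 4.35%, with an effective number of TRBV of 6.33. ZBTB16+ cells held TRAV10 at 70.2% and TRBV11-1 at 40%, with effective numbers of 2.01 for TRAV and 5.59 for TRBV. With the higher gate minimums, TRBV7-3 took 30.1% of GZMB+, TRBV11-1 66.7% of ZBTB16+ (effective number of TRBV 2.4) and TRAV12-2 5.19% of CCR9+ cells.

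By UMIs, TRAV12-2 took 18.3% and TRBV7-3 20.6% in GZMB+, TRBV7-3 15.7% in CX3CR1+, TRBV27 26.0% in EOMES+ and TRAV12-3 11.7% in CCR7+ cells, and the effective number of TRBV in FOXP3+ cells was 8.33. The genes past 2-fold, in the order GZMB, CX3CR1, EOMES, ZBTB16, CCR9, FOXP3 and CCR7, were 348, 163, 44, 40, 109, 164 and 158. A pseudocount of 1 CPM gave 978, 574, 297, 434, 421, 1014 and 501, and 50 CPM gave 99, 33, 7, 13, 26, 42 and 39. The causes were not tested. No paired analysis was possible because all cells came from 1 animal.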

Other observations

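Among the kept cells without a CD3E UMI, 204 cells besides the B gene cells, the median was 1455 UMIs. A TRAV was assigned in 33 of them, or 16.2%, and a TRBV in 40, or 19.6%. Cells with several segments at both loci numbered 18, with a median of 8200 UMIs.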
